A study of Mus musculus with 8 samples.

Results

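Across 8 embryoid body RNA-seq libraries, 10 genes of the retinoic acid pathway were followed, of 52281 loci that carry a gene name in the deposited table. The genes were taken by name: Rdh10, Aldh1a1, Aldh1a2 and Aldh1a3 for synthesis, Dhrs3 for the return of retinaldehyde to retinol, Cyp26a1 and Cyp26b1 for breakdown, Crabp1 and Crabp2 for binding, and the receptor gene Rarb. Embryoid bodies are aggregates that mouse embryonic stem cells form as they differentiate into a mixture of cell types, and these were collected on day 9. The 4 groups held 2 libraries each and shared the C57BL/6 background. Prdm16 knockout bodies stood against a wild-type set of their own, called the Prdm16 control here, and bodies with a knockout of the PR domain of Prdm16, whose titles name exon 4, stood against a second wild-type set, the PR domain control. Prdm16 encodes a zinc finger regulator of transcription, and the PR domain is its part related to histone methyltransferase domains. The labels do not name the stem cell clones behind the 4 groups, so a difference between clones and an effect of the deletion cannot be told apart. Culture medium was described with fetal bovine serum and without added retinoic acid.

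Retinoic acid is made from retinol (vitamin A) in a pair of steps. Rdh10 oxidises retinol to retinaldehyde, Dhrs3 reduces retinaldehyde back to retinol, and the Aldh1a dehydrogenases oxidise retinaldehyde irreversibly to retinoic acid. Cyp26 enzymes hydroxylate retinoic acid for removal, and Crabp proteins carry it inside the cell. Retinoic acid receptors bind DNA together with retinoid X receptors, often at direct repeats of a short motif, and in embryos and embryonic stem cells the pathway is known for patterning the hindbrain, the trunk and the heart. Rarb, Cyp26a1 and Dhrs3 are textbook examples of genes that retinoic acid itself induces.

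The promoter stretches of Rarb and Cyp26a1 are shown because these were the 2 members with a direct repeat spaced by 5 bases (a DR5) near the start site. RefSeq windows on GRCm38.p6, of 300 bases from 250 before to 50 after the start, were given for 7 of the 10 members (10 windows). Both strands were searched for the hexamer AGGTCA, its variant GGGTCA, the variant AGTTCA, or the variant GGTTCA, followed after 5, 2 or 1 bases by any of the same 4 hexamers. Of all 32851 windows of this length, 32 (0.0974%) held a DR5, and no member's window held a repeat spaced by 1 or 2 bases, which 0.222% and 0.268% of windows held. The Rarb repeat lies at chr14:16575513-16575529, 53 to 37 bases before the start, in the orientation of the gene, which runs on the minus strand. This start lies inside the annotated Rarb gene, whose 5′ end is at chr14:16819156. Which start sites the counted Rarb fragments came from was not tested. The Cyp26a1 repeat lies at chr19:37697776-37697792, 32 to 16 bases before the start, on the strand opposite to this plus-strand gene. Read along the repeat, 15 of the 17 bases are the same, and the differences, counted from the 5′ end with the Rarb base first, are G1A and G9C. In the next 2 lines the hexamers are in capitals, and in the last 2, which run 5′ to 3′ along each gene for the 250 bases before its start (Rarb chr14:16575477-16575726, minus strand; Cyp26a1 chr19:37697558-37697807, plus strand), the whole repeat is in capitals.
Rarb DR5: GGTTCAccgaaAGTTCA
Cyp26a1 DR5: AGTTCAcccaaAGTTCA
Rarb promoter: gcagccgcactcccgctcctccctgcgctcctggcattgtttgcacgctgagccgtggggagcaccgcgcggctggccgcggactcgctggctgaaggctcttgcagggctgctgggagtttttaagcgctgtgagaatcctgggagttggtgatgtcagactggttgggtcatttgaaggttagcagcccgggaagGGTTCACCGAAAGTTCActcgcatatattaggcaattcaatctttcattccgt
Cyp26a1 promoter: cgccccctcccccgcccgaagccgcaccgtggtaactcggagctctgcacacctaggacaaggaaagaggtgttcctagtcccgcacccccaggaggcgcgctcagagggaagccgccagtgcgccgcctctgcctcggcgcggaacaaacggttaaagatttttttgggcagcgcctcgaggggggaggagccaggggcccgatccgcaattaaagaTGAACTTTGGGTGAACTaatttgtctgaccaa
A match of letters describes the stretch and does not show that a receptor bound there in these cells.

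Libraries held 6273789 to 9086885 fragments on named loci. Levels are given as normalised fragments, the deposited fragment values after each library was divided by 1 size factor, and differences as log2 fold changes of (value + 1) with their standard error (SE) from limma, called where the Benjamini-Hochberg adjusted p over 16623 tested loci was below 0.05. Prdm16 itself stood at 24.4 and 26.3 in the Prdm16 control and 11.2 and 1.10 in the Prdm16 knockout. The PR domain control held 44.6 and 22.7, and the PR domain knockout 23.3 and 15.7. The Prdm16 transcript was lower in the Prdm16 knockout (log2 fold change −2.38 ± 0.50, limma adjusted p = 0.000306), and the difference in the PR domain knockout did not pass (−0.71 ± 0.50, adjusted p = 0.377). The size of the fall rested on the knockout libraries: it was −3.65 without Prdm16 knockout replicate 1 and −1.11 without Prdm16 knockout replicate 2, called both times, and on FPKM it was not called (−0.69, adjusted p = 0.213). Markers of several lineages were present, as the label of mixed differentiation has it: summed endoderm markers ranged from 11263 to 100609, cardiomyocyte markers from 7525 to 21271 and endothelial markers from 4494 to 7122 across the libraries, none of these markers at 0 in a whole group. Nothing in the labels says that a group's libraries come from separate cultures. If they do not, the p-values reflect technical spread alone. In such bulk samples fewer cells of a type and less RNA per cell cannot be told apart.

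Most of the 10 genes differed between knockout and control, and 8 did so in the same direction in both knockouts. Aldh1a2, Dhrs3 and Rarb were higher, and Cyp26a1, Cyp26b1, Crabp1, Crabp2 and Aldh1a3 were lower, so the main synthetic dehydrogenase rose while both breakdown enzymes and both binding proteins fell. Rdh10 passed the threshold in the Prdm16 comparison, where it fell, but not in the PR domain comparison, and Aldh1a1 passed in neither. Over the whole table, 11.6% of loci were called in the same direction in both knockouts.

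The 10 genes were chosen with earlier results of these data known, so no count of called members tests the pathway against other loci. In the Prdm16 knockout 9 of the 10 genes were called, against 39.1% of all tested loci. Of these, 3 were higher (background 18.0%) and 6 were lower (background 21.1%). Their median absolute log2 fold change was 0.91, against 0.25 over all tested loci. In the PR domain knockout 8 of the 10 were called, against a background of 19.2%, with 3 higher (8.48%) and 5 lower (10.7%), and the median absolute log2 fold change was 0.73 against 0.16. The groups did not overlap for 10 of 10 genes in the Prdm16 comparison, where 67.8% of all loci did not, and for 9 of 10 in the PR domain comparison, where 56.6% did not. On the deposited FPKM values, limma called 7 of the 10 in the Prdm16 knockout (without Rdh10 and Aldh1a3) and 3 of the 10 (Aldh1a2, Dhrs3 and Cyp26a1) in the PR domain knockout. Without PR domain knockout replicate 2, 5 of the 10 were called there.

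**Figure D1:**
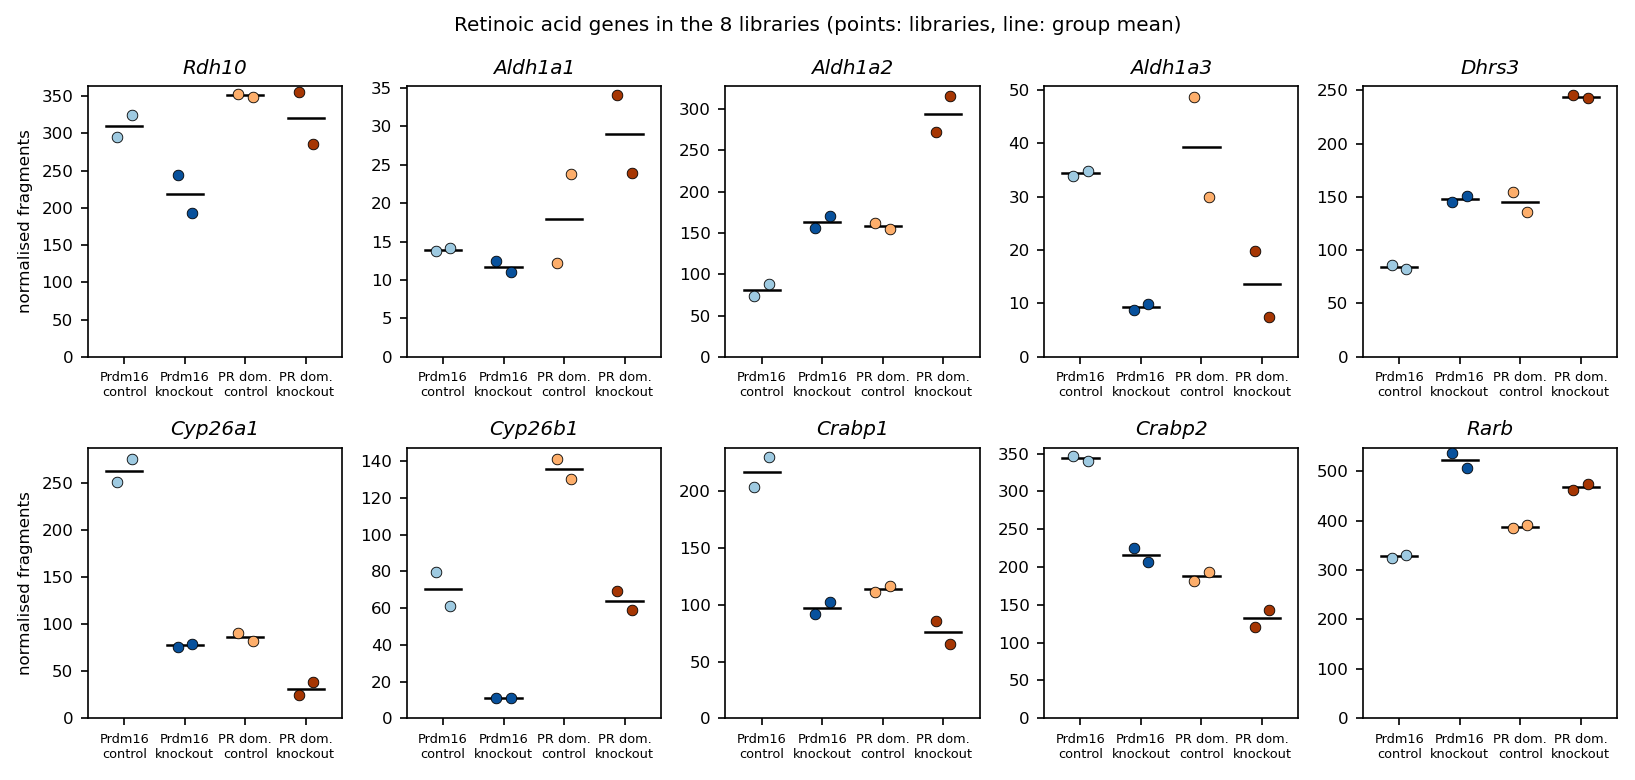
Normalised fragments (vertical axes, linear and starting at 0) of the 10 genes in each of the 8 libraries, with points for libraries and a line for the mean of each group of 2. Dhrs3 stood at 82.8 and 85.9 in the Prdm16 control and at 242 and 246 in the PR domain knockout, and Cyp26b1 stood at 11.0 and 11.2 in the Prdm16 knockout, below every other library.

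Rdh10 (ENSMUSG00000025921.7, chr1:16105774-16133734, plus strand; GENCODE M21 on GRCm38, as for all genes here), the enzyme of the first oxidation step, stood at 295 and 324 in the Prdm16 control and at 244 and 193 in the Prdm16 knockout. In the PR domain control it stood at 353 and 349, and in the PR domain knockout at 355 and 285. Both Prdm16 knockout libraries were thus below all 6 others, while the PR domain knockout libraries lay on both sides of their control. The log2 fold change was −0.51 ± 0.11 (SE, limma adjusted p = 0.000363) in the Prdm16 knockout, which is 1.42-fold lower, and was not called on FPKM (−0.37, adjusted p = 0.179). In the PR domain knockout it was −0.14 ± 0.11 (adjusted p = 0.430), with a 95% interval from −0.36 to 0.08. The difference between these changes was −0.37 ± 0.15 and did not pass (adjusted p = 0.101), but it did without Prdm16 knockout replicate 1 (−0.54, adjusted p = 0.0153) and without PR domain knockout replicate 2 (−0.53, adjusted p = 0.0313).

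Aldh1a2 (ENSMUSG00000013584.5, chr9:71215789-71296243, plus strand) is the dehydrogenase that makes most of the retinoic acid of the early embryo, in mesoderm. It stood at 73.2 and 88.4 in the Prdm16 control and at 156 and 170.5 in the Prdm16 knockout. It stood at 162 and 155 in the PR domain control and at 273 and 316 in the PR domain knockout. Each knockout was above its own control with no overlap, and the ranges of the Prdm16 knockout and the PR domain control overlapped. The rise was 2.02-fold in the Prdm16 knockout (log2 fold change 1.01 ± 0.13, limma adjusted p = 1.91e-07) and 1.85-fold in the PR domain knockout (0.89 ± 0.13, adjusted p = 4.15e-06). These rises differed by 0.13 ± 0.18 (adjusted p = 0.698), with a 95% interval from −0.24 to 0.50.

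A second locus in the table carries the name Aldh1a2, and the table gives it no position. It held 13.8 and 19.8 in the Prdm16 control against 27.3 and 28.6 in its knockout. The PR domain control held 24.3 and 27.9 against 35.9 and 47.1 in its knockout. Its groups were in the same order as those of the larger locus. Its log2 fold change was 0.72 ± 0.29 (limma adjusted p = 0.0497) in the Prdm16 knockout and 0.64 ± 0.29 (adjusted p = 0.135) in the PR domain knockout. The first of these was not called under 9 of the alternatives (adjusted p from 0.0617 to 0.309), the highest p being that without Prdm16 control replicate 1. Counts of the 10 genes use the larger locus.

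Aldh1a3 (ENSMUSG00000015134.15, chr7:66390890-66427517, minus strand) encodes the dehydrogenase of the eye and nasal region, and its levels were low. The Prdm16 control held 33.9 and 34.8 and the Prdm16 knockout 8.68 and 9.90, from 32, 37, 7 and 9 fragments. The PR domain control held 48.7 and 29.9 and the PR domain knockout 19.7 and 7.44. Both knockouts lay below both controls with no overlap, and the PR domain pairs were spread more than the Prdm16 pairs. Aldh1a3 fell, the log2 fold change being −1.78 ± 0.37 (limma adjusted p = 0.000287) in the Prdm16 knockout and −1.57 ± 0.37 (adjusted p = 0.00236) in the PR domain knockout. The latter was no longer called without PR domain control replicate 1 (−1.22, adjusted p = 0.0880), without PR domain knockout replicate 2 (−0.92, adjusted p = 0.143) or with no filter on low values (adjusted p = 0.0517). On FPKM neither passed (adjusted p = 0.131 and 0.141).

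Aldh1a1 (ENSMUSG00000053279.8, chr19:20492715-20643465, plus strand), a dehydrogenase of the dorsal retina and adult tissues, was scarce throughout, at 10 to 38 fragments a library. It held 13.8 and 14.1 in the Prdm16 control and 12.4 and 11.0 in the Prdm16 knockout. The PR domain control held 12.2 and 23.7, and the PR domain knockout 34.1 and 24.0. The PR domain control libraries alone spread over a range that took in the Prdm16 control. No comparison passed: the log2 fold change was −0.24 ± 0.37 (limma adjusted p = 0.650, 95% interval −0.99 to 0.52) in the Prdm16 knockout and 0.71 ± 0.37 (adjusted p = 0.195, −0.04 to 1.47) in the PR domain knockout.

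Dhrs3 (ENSMUSG00000066026.14, chr4:144892827-144928209, plus strand), which returns retinaldehyde to retinol and so limits synthesis, stood at 85.9 and 82.8 in the Prdm16 control and at 145 and 151 in the Prdm16 knockout. It stood at 154 and 136 in the PR domain control and at 246 and 242 in the PR domain knockout. As with Aldh1a2, the PR domain control lay at the level of the Prdm16 knockout, and the PR domain knockout was above all other libraries. Dhrs3 rose, the log2 fold change being 0.80 ± 0.13 (limma adjusted p = 6.62e-06) in the Prdm16 knockout and 0.75 ± 0.13 (adjusted p = 4.15e-05) in the PR domain knockout, 1.75-fold and 1.68-fold. Their difference was 0.06 ± 0.18 (adjusted p = 0.876, 95% interval −0.31 to 0.42).

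Cyp26a1 (ENSMUSG00000024987.6, chr19:37697798-37701536, plus strand) encodes a retinoic acid hydroxylase of the early embryo and is the gene with the second DR5 shown above. Its values were 250.2 and 275 in the Prdm16 control and 75.7 and 79.2 in the Prdm16 knockout. The PR domain control held 90.3 and 81.5, and the PR domain knockout 25.1 and 38.0. No groups overlapped, with the Prdm16 control highest and the PR domain knockout lowest. Cyp26a1 fell, the log2 fold change being −1.75 ± 0.18 (limma adjusted p = 3.75e-09) in the Prdm16 knockout, 3.36-fold lower, and −1.44 ± 0.18 (adjusted p = 3.32e-07) in the PR domain knockout, 2.72-fold lower. The difference of −0.30 ± 0.25 between them did not pass (adjusted p = 0.470, 95% interval −0.82 to 0.22).

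Cyp26b1 (ENSMUSG00000063415.12, chr6:84571414-84593908, minus strand), the hydroxylase of the hindbrain, limb and gonad, showed the greatest fall of the 10 genes in the Prdm16 knockout. It stood at 79.5 and 61.1 in the Prdm16 control and at 11.2 and 11.0 in the Prdm16 knockout, from 9 and 10 fragments. It stood at 141 and 130.0 in the PR domain control and at 69.1 and 58.7 in the PR domain knockout. The Prdm16 knockout was far below all other libraries, and the PR domain knockout overlapped the Prdm16 control. Its log2 fold change was −2.55 ± 0.21 (limma adjusted p = 6.09e-11) in the Prdm16 knockout and −1.08 ± 0.21 (adjusted p = 0.000365) in the PR domain knockout. In summed fragments the Prdm16 knockout held 15.9% of its control (exact 95% interval 9.28% to 25.7%, counting error only) and the PR domain knockout 47.0%.

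Crabp1 (ENSMUSG00000032291.8, chr9:54764748-54773110, plus strand), a cytoplasmic carrier that brings retinoic acid to its breakdown enzymes, stood at 204 and 230.4 in the Prdm16 control and at 91.8 and 102 in the Prdm16 knockout. It stood at 112 and 117 in the PR domain control and at 86.1 and 65.3 in the PR domain knockout. Groups did not overlap, and the PR domain pair lay closer together than the Prdm16 pair. The log2 fold change was −1.15 ± 0.15 (limma adjusted p = 3.43e-07) in the Prdm16 knockout and −0.60 ± 0.15 (adjusted p = 0.00417) in the PR domain knockout. The latter depended on PR domain knockout replicate 2, without which it was −0.40 (adjusted p = 0.136), and was not called by DESeq2 (adjusted p = 0.0843).

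Crabp2 (ENSMUSG00000004885.5, chr3:87948666-87953376, plus strand), which delivers retinoic acid to its nuclear receptors, stood at 347 and 340.5 in the Prdm16 control and at 225 and 207 in the Prdm16 knockout. It stood at 182 and 194 in the PR domain control and at 121 and 143 in the PR domain knockout. Here too the 4 groups were separate, with the Prdm16 control highest and the PR domain knockout lowest. Crabp2 fell, the log2 fold change being −0.67 ± 0.11 (limma adjusted p = 1.31e-05) in the Prdm16 knockout and −0.51 ± 0.11 (adjusted p = 0.000962) in the PR domain knockout, 1.59-fold and 1.42-fold lower. Their difference was −0.16 ± 0.16 (adjusted p = 0.541, 95% interval −0.48 to 0.16).

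Rarb (ENSMUSG00000017491.9, chr14:16430839-16819156, minus strand) encodes the beta receptor and has the first DR5 shown above, before a start inside the gene. It stood at 324 and 331 in the Prdm16 control and at 537 and 506 in the Prdm16 knockout. It stood at 385 and 390.1 in the PR domain control and at 462 and 474 in the PR domain knockout. The Prdm16 knockout was highest, and no groups overlapped. Rarb rose, the log2 fold change being 0.67 ± 0.08 (limma adjusted p = 3.14e-08) in the Prdm16 knockout, 1.59-fold, and 0.27 ± 0.08 (adjusted p = 0.0109) in the PR domain knockout, 1.21-fold. The smaller rise was not called without PR domain control replicate 1 (adjusted p = 0.0761), PR domain control replicate 2 (adjusted p = 0.0555) or PR domain knockout replicate 2 (adjusted p = 0.0801), with log2 fold changes from 0.25 to 0.28.

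Rarb and Cyp26a1, the members with a DR5 in the window, therefore moved in opposite directions in both knockouts. Rarb also overlaps the opposite-strand gene Top2b in the annotation, and the sources used here do not give whether strand entered the counting. Top2b, a DNA topoisomerase, held 2150 to 2752 normalised fragments and was lower in both knockouts (log2 fold change −0.15 ± 0.04, limma adjusted p = 0.00806, and −0.13 ± 0.04, adjusted p = 0.0396). An antisense gene that overlaps Rarb, Gm48162, stayed at or below 1.24. Whether fragments of Top2b or Gm48162 entered the Rarb values was not tested.

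Whether the knockouts differed from each other was tested as the Prdm16 change minus the PR domain change, each against its own control. This difference was called for 2 of the 10 genes, against 16.4% of all loci: Rarb on the higher side (1 of 10, background 8.60%) and Cyp26b1 on the lower side (1 of 10, background 7.81%). Cyp26b1 fell by more in the Prdm16 knockout (difference −1.47 ± 0.30, limma adjusted p = 0.000818). Rarb rose by more there (0.40 ± 0.11, adjusted p = 0.0104), a difference that DESeq2 did not call (adjusted p = 0.109). The Crabp1 difference of −0.55 ± 0.21 missed the threshold (adjusted p = 0.0752) but passed with libraries scaled by total fragments (adjusted p = 0.0435) and without PR domain knockout replicate 2 (−0.75, adjusted p = 0.0234). On FPKM, limma called 0 of the 10 differences, with 1 at an unadjusted p below 0.05, where DESeq2 called 1 and edgeR 2.

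**Figure D2:**
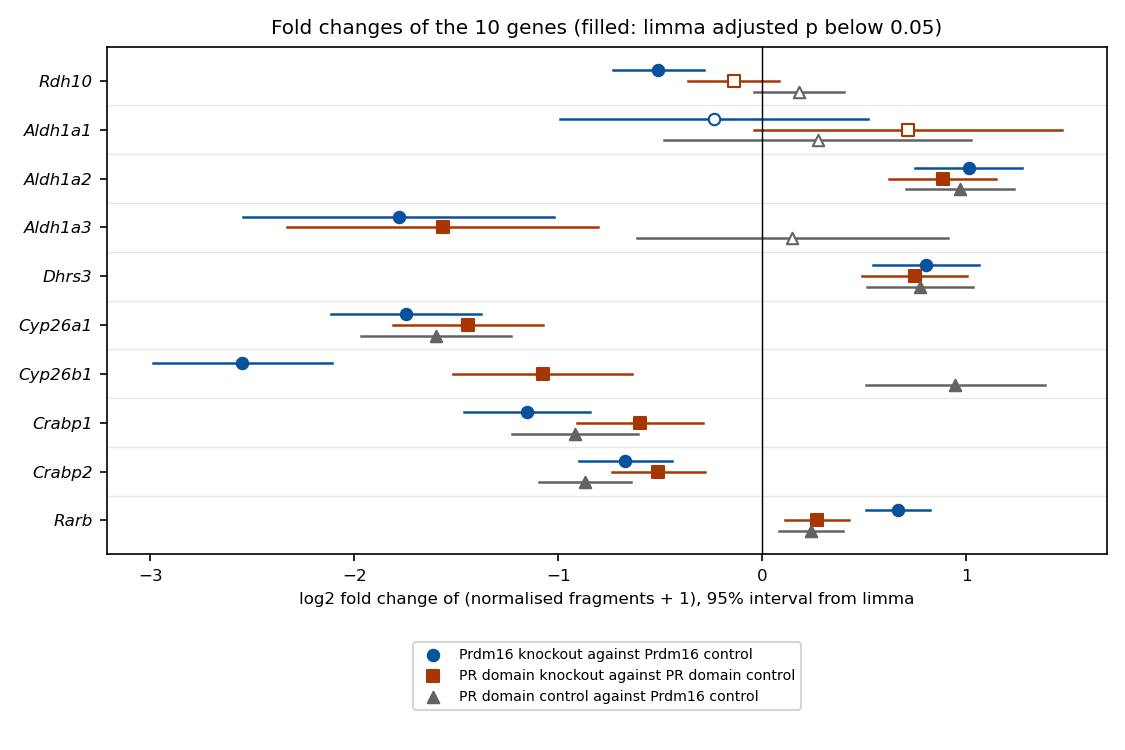
Log2 fold changes of (normalised fragments + 1) with 95% limma intervals (horizontal axis) for the 10 genes in both knockout comparisons and between the 2 controls, filled where the adjusted p was below 0.05. For Aldh1a2 the 3 changes were 1.01, 0.89 and 0.97, while for Cyp26b1 the knockout changes of −2.55 and −1.08 stood against 0.95 between the controls.

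The 2 wild-type sets also differed in these genes. Relative to the Prdm16 control, 7 of the 10 were called in the PR domain control (background 33.0%): Aldh1a2, Dhrs3, Cyp26b1 and Rarb were higher (4 of 10, background 16.3%), and Cyp26a1, Crabp1 and Crabp2 were lower (3 of 10, background 16.7%). Groups did not overlap for 8 of the 10, against 65.2% of loci. The log2 fold change was 0.97 ± 0.13 for Aldh1a2 (limma adjusted p = 4.60e-07), 0.77 ± 0.13 for Dhrs3 (adjusted p = 1.32e-05) and −1.60 ± 0.18 for Cyp26a1 (adjusted p = 2.17e-08). For Crabp1 it was −0.92 ± 0.15 and for Crabp2 −0.87 ± 0.11 (adjusted p = 1.44e-05 and 2.27e-07). These are about as large as the knockout changes of the same genes, with which the comparison shares its controls. Cyp26b1 was higher in the PR domain control (0.95 ± 0.21, adjusted p = 0.000847), though not called on FPKM (0.59, adjusted p = 0.125). Rarb was higher as well (0.24 ± 0.08, adjusted p = 0.0148), and this call was lost without Prdm16 control replicate 1 (adjusted p = 0.0779), PR domain control replicate 1 (adjusted p = 0.0592) or PR domain control replicate 2 (adjusted p = 0.0809), by DESeq2 (adjusted p = 0.114) and on FPKM (adjusted p = 0.370).

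The Prdm16 knockout was then set against the PR domain control, a comparison added after the values were seen and sharing libraries with those above. Here 4 of the 10 genes were called, the share of the whole table (40.6%), with 1 higher (background 18.5%) and 3 lower (background 22.2%). Groups did not overlap for 7 of the 10, against 68.3% of loci. The log2 fold change was 0.04 ± 0.13 for Aldh1a2 (95% interval −0.22 to 0.31), 0.03 ± 0.13 for Dhrs3 (−0.23 to 0.29), −0.15 ± 0.18 for Cyp26a1 (−0.51 to 0.22), −0.23 ± 0.15 for Crabp1 (−0.54 to 0.08) and 0.20 ± 0.11 for Crabp2 (−0.03 to 0.42). None of these 5 passed (limma adjusted p from 0.158 to 0.880). The 4 that passed were Rarb (0.43 ± 0.08), Rdh10 (−0.69 ± 0.11), Aldh1a3 (−1.93 ± 0.37) and Cyp26b1 (−3.50 ± 0.21). On FPKM the Aldh1a3 and Rarb differences were not called (adjusted p = 0.0642 and 0.143). Aldh1a2, Dhrs3, Cyp26a1, Crabp1 and Crabp2 separated the Prdm16 knockout from the Prdm16 control but not beyond the threshold from the PR domain control.

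Levels per transcript length are given as FPKM, with only the larger locus of Aldh1a2. FPKM was not a fixed rescaling of the fragments. Normalised fragments per FPKM differed between libraries by up to 2.18-fold for Aldh1a3, 1.43-fold for Aldh1a1, 1.29-fold for Dhrs3, 1.28-fold for Cyp26b1 and 1.22-fold for Rarb. For Aldh1a2, Cyp26a1 and Crabp1 this was 1.00-fold. The FPKM shares and sums carry these differences. On FPKM the binding proteins were the most abundant of the 10 genes in both control groups. In the PR domain knockout Dhrs3 was (25.8, against 19.9 for Crabp2 and 13.8 for Crabp1). In the Prdm16 knockout Crabp2 (32.3) and Rarb (21.1) were above Crabp1 (17.7). Crabp2 had 51.6 ± 0.768 FPKM (mean ± SD, n = 2) and Crabp1 39.5 ± 3.46 in the Prdm16 control, and their sum was 91.2 there, 49.97 in the Prdm16 knockout, 49.0 in the PR domain control and 33.7 in the PR domain knockout. Aldh1a2 led the Aldh1a family in every group. Its share of the family's FPKM was 61.4% ± 9.24 (mean ± SD, n = 2) in the Prdm16 control against 86.8% ± 1.26 in its knockout. The PR domain pair had shares of 71.7% ± 6.71 and 86.7% ± 5.92. The family's summed FPKM was 6.99, 9.98, 11.8 and 18.0 in the same order of groups, so the sum was higher in each knockout than in its control although Aldh1a3 fell. The second Aldh1a2 locus, left out of these shares and sums, had mean FPKM of 4.13, 6.88, 6.42 and 10.2 in that order.

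The Cyp26 pair had a summed FPKM of 20.4 ± 0.472 in the Prdm16 control, 5.73 ± 0.145 in its knockout, 9.64 ± 0.508 in the PR domain control and 3.91 ± 0.512 in its knockout. Cyp26a1 made up 89.5% of this in the Prdm16 control and 94.1% in its knockout, but 62.0% in the PR domain control and 55.7% in its knockout. The balance of the 2 hydroxylases thus differed more between the wild-type sets than between either knockout and its control. Summed Aldh1a FPKM was below summed Cyp26 FPKM in the Prdm16 control and above it in the other 3 groups. Rarb had 13.9, 21.1, 16.3 and 19.0 FPKM, Rdh10 10.3, 7.83, 12.3 and 11.0, and Dhrs3 8.78, 16.0, 14.1 and 25.8, in the same order of groups.

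**Figure D3:**
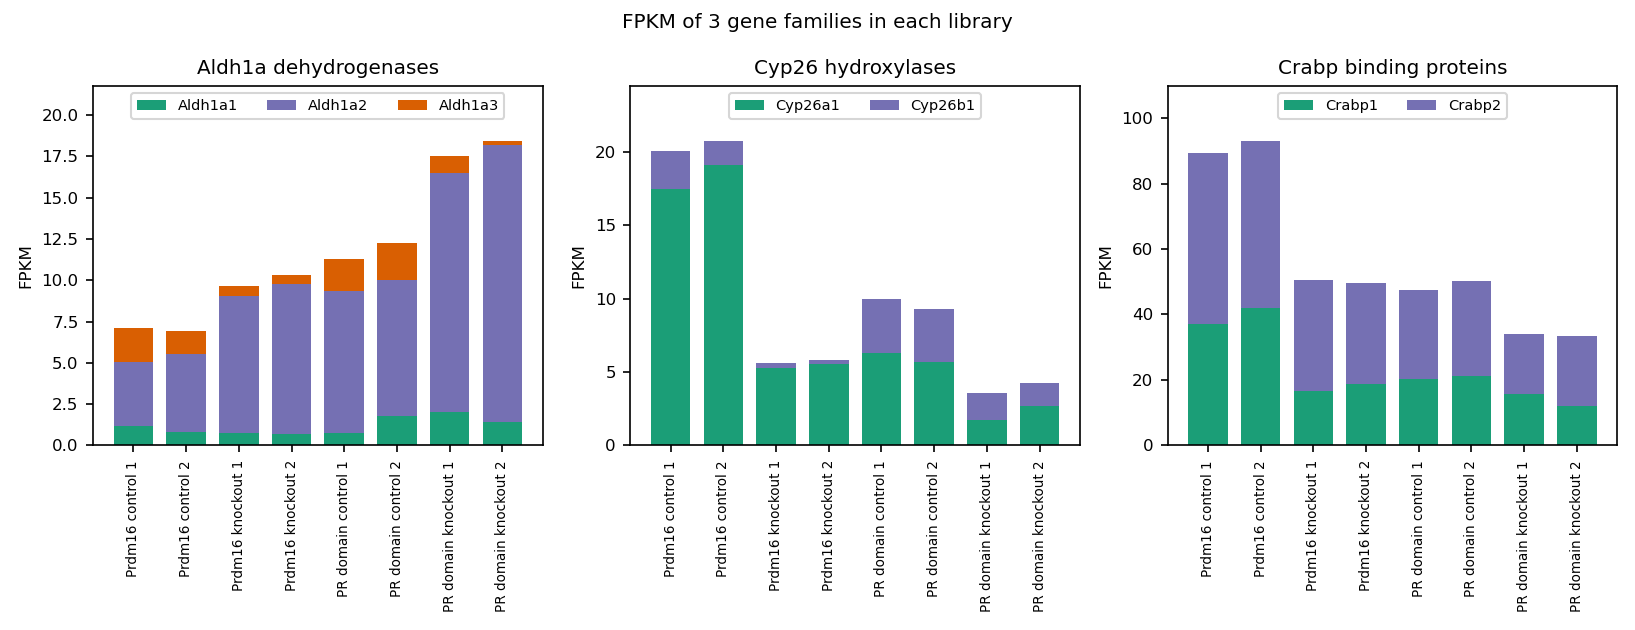
FPKM (vertical axes, from 0) of the Aldh1a, Cyp26 and Crabp genes stacked in each of the 8 libraries, with only the larger locus of Aldh1a2. Aldh1a2 fills most of the first panel, at 15.6 FPKM on average in the PR domain knockout, and the Cyp26 sum falls from 20.4 in the Prdm16 control to 3.91 in the PR domain knockout.

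Beyond the 10 genes, 65 further genes of retinoid supply, metabolism, reception and response were listed, of which 48 loci were tested. In the Prdm16 knockout 13 rose (27.1%, against 18.0% of all loci) and 6 fell (12.5%, against 21.1%), with a median log2 fold change of 0.01 against −0.03 over all loci, and in the PR domain knockout 7 rose (14.6%, against 8.48%) and 4 fell (8.33%, against 10.7%), with a median of −0.01 against −0.03. In both directions together these shares are close to the 39.1% and 19.2% of the whole table, with more of the called loci on the higher side.

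Among the genes of retinoid supply and storage, 4 of 7 tested rose and 1 fell in the Prdm16 knockout, and 2 rose in the PR domain knockout, where 18.0%, 21.1% and 8.48% of all loci were so called. Rbp4, the retinol carrier of blood plasma, stood at 4858 and 4780 in the Prdm16 control and 10762 and 10678 in its knockout (log2 fold change 1.15 ± 0.04, limma adjusted p = 9.23e-20). It rose in the PR domain knockout as well (0.88 ± 0.04, adjusted p = 1.98e-16), from a lower level of 1187 and 1287. Ttr, which binds Rbp4 in plasma, rose by 0.73 ± 0.07 and 1.27 ± 0.07 on the log2 scale (adjusted p = 5.09e-10 and 3.74e-15). Both genes also belong to the endoderm marker list, whose summed level was 48604 to 50675 in the Prdm16 control, 100181 to 100609 in its knockout, 11263 to 11779 in the PR domain control and 19865 to 20358 in its knockout. Of its 12 markers 10 rose and none fell in the Prdm16 knockout, while the PR domain knockout had 11 that rose and 1 that fell. The part of this shift in the Rbp4 and Ttr changes was not tested. Stra6, the cell surface receptor for retinol bound to Rbp4, fell in the Prdm16 knockout from 20.8 ± 2.47 to 5.71 ± 2.81 (mean ± SD, n = 2; log2 fold change −1.76 ± 0.47, limma adjusted p = 0.00338).

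Of 8 other retinol and retinal enzymes, 2 rose and 1 fell in the Prdm16 knockout, while none passed by limma in the other knockout. Rdh11, a retinaldehyde reductase, rose by 0.49 ± 0.08 on the log2 scale in the Prdm16 knockout (limma adjusted p = 1.19e-05). Cyp26c1, the third hydroxylase, lies just upstream of Cyp26a1 on the same strand (chr19:37685581-37693398). It was scarce at 9.41 ± 1.32 in the Prdm16 control and 2.34 ± 0.199 in its knockout (−1.64 ± 0.58, adjusted p = 0.0257), and 8.17 ± 2.79 and 2.55 ± 1.07 in the PR domain pair (−1.37 ± 0.58, adjusted p = 0.104).

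Of 15 receptors and receptor partners tested, 2 rose and 2 fell in each knockout. Rara and Rarg, the alpha and gamma receptors, and Rxra, a retinoid X receptor, did not pass in either knockout, with log2 fold changes of −0.07 and 0.00 for Rara, −0.16 and −0.12 for Rarg and 0.12 and 0.05 for Rxra. Rxrb, another retinoid X receptor, rose in the Prdm16 knockout (0.24 ± 0.08, limma adjusted p = 0.0215) but did not pass in the PR domain knockout (−0.12 ± 0.08, adjusted p = 0.347). The difference between these Rxrb changes was called (0.37 ± 0.12, limma adjusted p = 0.0314). Rxrg, a scarcer retinoid X receptor, rose in both (1.24 ± 0.35, limma adjusted p = 0.00563, and 1.15 ± 0.35, adjusted p = 0.0189), with means of 7.41 and 18.7 in the Prdm16 pair and 17.4 and 38.7 in the PR domain pair. Nrip1, a corepressor of nuclear receptors, fell in both (−0.44 ± 0.08, adjusted p = 2.66e-05, and −0.28 ± 0.08, adjusted p = 0.00768). Zfp423, a zinc finger cofactor of retinoic acid receptors, fell in the PR domain knockout (−0.45 ± 0.08, adjusted p = 4.73e-05), where Ncoa3, a coactivator, rose (0.23 ± 0.07, adjusted p = 0.0124). Rara, Rarg, Rxra, Rxrb and Rxrg were named after their values were seen.

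Genes known to respond to retinoic acid moved in both directions. Of 18 tested, 5 rose and 2 fell in the Prdm16 knockout, a share near the 39.1% of all loci, and 3 rose and 2 fell in the PR domain knockout (background 19.2%). Tgm2, a transglutaminase, rose in both (0.85 ± 0.06, limma adjusted p = 2.75e-12, and 0.50 ± 0.06, adjusted p = 3.62e-07). Fgf8, a growth factor that retinoic acid represses in the embryo, fell in both (−2.08 ± 0.30, adjusted p = 2.06e-06, and −0.85 ± 0.30, adjusted p = 0.0460), from 79.6 ± 3.13 to 18.2 ± 2.37 in the Prdm16 pair and from 19.9 ± 1.92 to 10.7 ± 2.43 in the PR domain pair. In the Prdm16 knockout the homeobox gene Hoxb4 rose (0.75 ± 0.17, adjusted p = 0.000547), as did Bhlhe40, a basic helix-loop-helix repressor (0.72 ± 0.08, adjusted p = 3.83e-08), while a locus that joins Hoxa2 and Hoxa3 fell (−0.92 ± 0.33, adjusted p = 0.0261). In the PR domain knockout Foxa1, a transcription factor of endoderm and other epithelia, rose (0.62 ± 0.14, adjusted p = 0.00115), and the orphan receptor Nr2f2 fell (−0.29 ± 0.07, adjusted p = 0.00268).

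**Figure D4:**
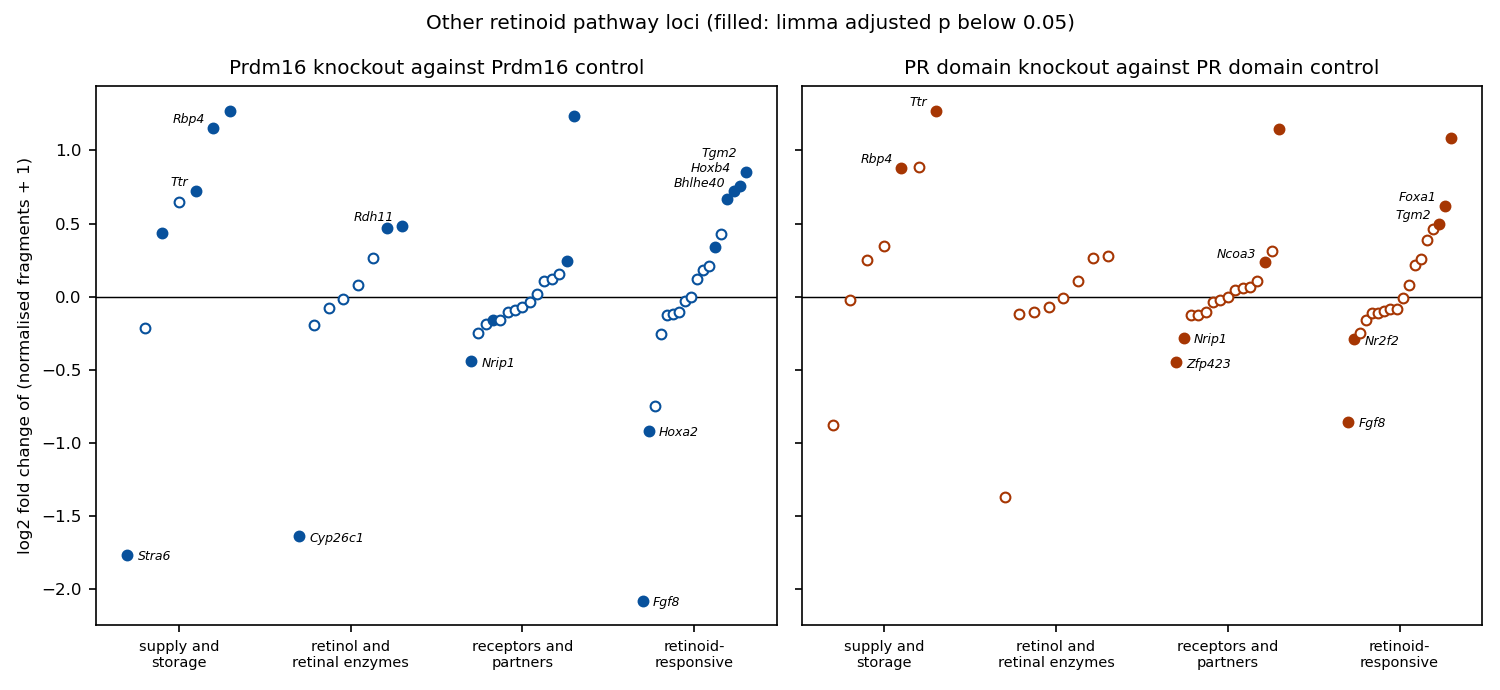
Log2 fold changes of (normalised fragments + 1) (vertical axis) of the 48 tested loci of the wider retinoid list in both knockout comparisons, by role, filled where the limma adjusted p was below 0.05. Filled points lie on both sides of 0 in the Prdm16 knockout (13 above, 6 below) and in the PR domain knockout (7 above, 4 below), with Rbp4 and Ttr above 0 in both.

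Markers of several cell types differed between the same groups. The summed level of 8 mesothelium and epicardium markers, cells that express Aldh1a2 in the embryo, was 2124 to 2308 in the Prdm16 control, 2753 to 2767 in its knockout, 3236 to 3285 in the PR domain control and 4162 to 4294 in its knockout. Of these 8, 5 rose and 2 fell in the Prdm16 knockout, 4 rose and 1 fell in the PR domain knockout, and none was at 0 in a group (backgrounds 18.0%, 21.1%, 8.48% and 10.7%). Wt1, a transcription factor that defines this lineage, rose by 1.12 ± 0.09 and 1.15 ± 0.09 on the log2 scale (limma adjusted p = 6.93e-12 and 9.88e-12). Other members went the other way: Sema3d, a semaphorin, fell in both knockouts (−1.64 ± 0.13, adjusted p = 1.16e-11, and −0.47 ± 0.13, adjusted p = 0.00755) and the keratin Krt19 fell in the Prdm16 knockout (−0.29 ± 0.07, adjusted p = 0.000796). Erythroid markers (7347 to 7475, 10410 to 10442, 10105 to 10682 and 20093 to 20364) and macrophage markers (1247 to 1319, 2770 to 2873, 4157 to 4331 and 8375 to 8445) were also lowest in the Prdm16 control and highest in the PR domain knockout. Of 8 erythroid markers, 5 rose and 1 fell in the Prdm16 knockout and 7 rose in the PR domain knockout. Of 8 macrophage markers, 7 and 8 rose (same backgrounds). Without Hbb-bh1, the most abundant erythroid marker, the erythroid sums averaged 5132, 5372, 6549 and 12782, so the Prdm16 pair then lay close together. The part of these shifts in the Aldh1a2 and Dhrs3 changes was not tested.

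For the genes that fell, 9 paraxial mesoderm and sclerotome markers with a locus in the table, 4 of them tested, summed to 236 in both Prdm16 control libraries, 45.1 to 47.1 in its knockout, 309 to 318 in the PR domain control and 115 to 131 in its knockout. Most of this sum was Pax1, a sclerotome transcription factor, which averaged 170.1, 2.41, 255 and 78.9, and without it the sums averaged 66.1, 43.7, 58.3 and 43.9. In the Prdm16 knockout 2 of the 4 tested fell and in the PR domain knockout 1 did, and none rose. Msgn1 was at 0 in all 4 groups, and Meox2 and Uncx in the Prdm16 knockout. Neural progenitor markers (1797 to 1820, 1066 to 1100, 1981 to 2030 and 1360 to 1393) were likewise lower in each knockout, where 8 of 10 tested fell and 1 rose in the Prdm16 knockout, against 4 that fell in the PR domain knockout. Without Nes, the most abundant of these markers, the sums averaged 956, 522, 733 and 454, so the order of the controls depended on Nes. Msx3 and Hes5 were at 0 in the Prdm16 knockout, and Olig2 and Msx3 in both PR domain groups. Pluripotency markers (1791 to 1869, 905 to 918, 313 to 322 and 170 to 194) were highest in the Prdm16 control and lowest in the PR domain knockout, as was Cyp26a1, and 3 of 4 tested fell in the Prdm16 knockout, whereas 2 fell and Pou5f1 rose in the PR domain knockout. Cardiomyocyte markers (9010 to 9375, 7525 to 7641, 20891 to 21271 and 10236 to 10383) fell for 6 of 8 in the Prdm16 knockout and 7 of 8 in the PR domain knockout, with 1 that rose in each. Endothelial markers (5015 to 5086, 4494 to 4668, 6896 to 7122 and 4915 to 5002) fell for 5 of 8, with 2 that rose, and for 8 of 8. Neural crest markers (1395 to 1397, 1172 to 1239, 1832 to 1857 and 1400 to 1529) fell for 1 and 2 of 4 tested, with Foxd3 and Tfap2b at 0 in both PR domain groups. Against these counts stand 21.1% and 10.7% of all loci that fell. The part of these shifts in the Cyp26, Crabp and Aldh1a3 changes was not tested.

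The genes with the most similar profile were sought for each member among 10158 loci with a mean of at least 50, by the root-mean-square distance between centred log2 profiles over the 8 libraries. For Dhrs3 they were Hacd4 (distance 0.067) and Bnc1 (0.075), and for Aldh1a2 Tmem200a (0.087) and Vsir (0.104). Bnc1, a zinc finger gene of mesothelium and other epithelia, averaged 679, 1080, 1134 and 1915 in the 4 groups, lowest in the Prdm16 control and highest in the PR domain knockout, as was Dhrs3. The smaller Aldh1a2 locus was nearest to Ube2ql1 (0.0999), with Tbx18, a marker of epicardium, second (0.142). Aldh1a1, which passed in neither knockout, was nearest to Gp1ba (0.217) and P2rx1 (0.226). For Rarb the nearest were Bcar3 (0.047) and Snx24 (0.053), and for Rdh10 Ptpn12 (0.089) and Metap1d (0.090).

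Among the genes that fell, Cyp26a1 was nearest to Fgf15 (0.306) and Tdgf1 (0.373), Cyp26b1 to Vgll2 (0.231) and Thbd (0.332), Crabp1 to Axin2 (0.120) and Lin28b (0.179), Crabp2 to Dclk2 (0.130) and Slc1a4 (0.139), and Aldh1a3 to Pik3c2b (0.375) and Prex2 (0.403). Tdgf1, a Nodal coreceptor of pluripotent and early embryonic cells, averaged 213, 105, 124 and 28.6 in the 4 groups, and Vgll2, a transcription cofactor, averaged 64.0, 13.4, 137 and 51.6. Distances were larger for these genes than for Rarb or Dhrs3, and the reason was not tested. The profiles of Rarb and Dhrs3 vary less and rest on more fragments than those of Aldh1a3 and Cyp26b1. The profile of Crabp2, however, varies less than that of Dhrs3 (SD 0.499 against 0.541).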

How the data were processed

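Total RNA of 8 mouse embryoid body libraries was sequenced, 2 in each of 4 groups, which were assigned from the sample titles. TopHat2 2.1.1, SAMtools 1.5, Cufflinks 2.2.1 and deepTools with the mm10 build are named, with no roles, per the submitters' processing notes. The deposited count table is signal rather than raw counts: the authors' fragments per assembled locus were divided by 1 size factor per library, and 99.98% to 100% of values came out as whole fragments (within 0.1 of a whole number) when the step of each library was divided out. A second deposited table holds FPKM, fragments scaled to transcript length and library size as the authors computed them.

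Loci without a name (787, holding 1.88% to 2.53% of fragments) were left out. Those that reached 10 normalised fragments in 2 or more libraries (16623) were tested with limma 3.58.1 (trend, 4 group means over all 8 libraries) in R 4.3.3 on log2(value + 1), and p-values were adjusted over all of them by Benjamini-Hochberg. The model has 4 residual degrees of freedom, to which limma added 25.4 from the spread of loci at similar levels. Each SE, interval and p-value therefore rests mostly on this shared spread and not on that of the pair beside it. Contrasts were each knockout against its control, the difference between these, and the controls against each other. The comparison of the Prdm16 knockout with the PR domain control was added after seeing the data. Methods were checked on simulated data with the same spread at every locus and few changed loci. That setting is unlike these data, so the check does not show that the calls here are right.

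Alternatives were edgeR 4.0.16 and DESeq2 1.42.0 on the recovered fragments, 3 other scalings, limma on log2(FPKM + 1), a pseudocount of 5, no filter, only the 2 groups compared, a replicate block and leaving out each library. Members and lists were chosen with earlier results of these data known. Named pathway genes are up to 6 per direction and knockout with the smallest adjusted p among those called, and the 2 nearest profiles per member; 1 such pathway gene is not reported here. Same-numbered libraries of a knockout and its control did not deviate together over the tested loci (correlations −0.03 and 0.03). With 2 libraries a group this cannot exclude that a number marks a shared culture or day, which the labels do not state. Promoter sequences are from RefSeq (GRCm38.p6) and gene positions from GENCODE M21.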

Additional observations from a re-analysis of the deposited data

Results flagged for a closer look

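The changes of Cyp26b1 and Rarb differed between the knockouts by the test of the difference itself. For Cyp26b1 the Prdm16 change minus the PR domain change was −1.47 on the log2 scale, from −2.55 and −1.08 with each knockout set against its own control. For Rarb it was 0.40, from 0.67 and 0.27. On FPKM neither difference was called (limma adjusted p = 0.503 and 0.417). The causes were not tested.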

How the results depend on the processing

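For the 32 called values of the 10 genes, the second Aldh1a2 locus and Prdm16 in its knockout, all 454 values under the alternatives run kept the direction, and of these 418 stayed called and 36 did not. Called loci, by DESeq2 and by limma on FPKM, numbered 3983 and 1876 for the Prdm16 knockout (6502 in the report's fit), 1797 and 502 for the PR domain knockout (3190), 1179 and 170 for the difference (2728, and 1642 with no filter), 3388 and 1517 between controls (5481), and 4370 and 2554 for the Prdm16 knockout against the PR domain control (6753). Of the 10 genes, FPKM gave 3 for the PR domain knockout, 0 for the difference (1 at an unadjusted p below 0.05, 1 called by DESeq2 and 2 by edgeR) and 2 for the Prdm16 knockout against the PR domain control. Normalised fragments per FPKM differed between libraries for several of the 10 genes, and why FPKM calls fewer was not tested. Higher calls made up 44.2% in the PR domain knockout and 52.4% for the difference, but 54.4% with DESeq2's scaling and 37.0% with total-fragment scaling.

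Leaving out single libraries gave 5028 to 5422, 2180 to 2449, 1950 to 2390, 4047 to 4231 and 5322 to 5775 called loci in the same order, and 9 to 9, 5 to 8, 2 to 4, 6 to 7 and 4 to 4 of the 10 genes. The lowest count for the PR domain knockout and the highest for the difference came without PR domain knockout replicate 2. Changes of sign were seen for values not called. Rdh10 in the PR domain knockout ranged from −0.30 to 0.018 over the libraries left out. The difference between knockouts ranged from −0.0074 to 0.26 for Aldh1a2, −0.16 to 0.33 for its second locus (−0.11 and −0.0092 among them), −0.86 to 0.43 for Aldh1a3 (0.20 on FPKM, 0.13 without PR domain control replicate 2) and −0.033 to 0.14 for Dhrs3 (−0.0053 with total-fragment scaling, −0.034 on FPKM). Between controls the ranges were −0.18 to 0.73 for Aldh1a1, −0.19 to 0.49 for Aldh1a3 and −0.15 to 0.79 for Prdm16, and for the Prdm16 knockout against the PR domain control −0.020 to 0.11 for Aldh1a2 and −0.059 to 0.12 for Dhrs3.

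With the replicate number as a block, limma called 6438, 3149, 2686, 5442 and 6722 loci and 9, 8, 2, 7 and 4 of the 10 genes, and the block changed no call on these genes. With 2 libraries a group and 7 to 38 fragments a library for most values of Aldh1a1 and Aldh1a3, changes of these genes smaller than their intervals were not detectable at this depth.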
